A study of Mus musculus with 4 samples.

Results

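GATA-1 WT against the G1E control is the comparison that sets cells given back wild-type GATA-1 beside cells without it. Its members are all 1685 genes that the authors' deposited table for this pair of groups lists, of 2982 genes listed in any of the 6 tables of the series. The sources used here do not state how many genes the authors tested. A number of 12931 was worked out from the p-values and adjusted p-values of the listed genes. It is a lower bound, so the shares of tested genes given here may be too high. The authors listed a gene when its adjusted p was below 0.01 and its change above 2-fold. Of the listed genes, 1057 were higher in GATA-1 WT, which is 8.17% of the genes tested, and 628 were lower, which is 4.86%. G1E is a mouse erythroblast line derived from embryonic stem cells whose Gata1 gene was disrupted. The labels name 4 groups of 1 sample each, and all 4 were treated with β-estradiol, so the control carries that treatment too. The G1E control sample has the genotype control, and the GATA-1 WT sample is G1E with wild-type GATA-1. The other groups, GATA-1 2RA and GATA-1 V205M, are not described here. The labels do not say how GATA-1 was introduced, whether it was fused to a hormone receptor, or how long the treatment lasted. A single cell line stands behind each value, and a level here is a property of the culture as a whole: fewer cells of a type and less RNA per cell cannot be told apart.

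GATA-1 is a zinc finger transcription factor that binds GATA motifs, often beside the factors Tal1, Lmo2 and Klf1 and with the cofactor FOG-1. In the erythroid lineage it is known to activate globin, heme synthesis and red cell membrane genes and to repress genes of the progenitor state such as Gata2, Kit and Myc. It also has roles in mast cells, megakaryocytes and eosinophils.

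The values are scaled reads, that is, read counts over a size factor set per count column. The deposited levels could be solved into whole reads for 100% of listed genes. The control level proved to be the mean of 2 count columns, with 735529 and 200008 reads over the listed genes, and the GATA-1 WT level rested on 1 column with 1574619 reads. The sources used here do not say whether the 2 control columns are cultures or sequencing runs. Over the 1145 listed genes with 100 or more control reads, the difference between these columns, after a common offset was removed, had an SD of 1.09 times its counting error. Counting alone would give an SD of 1. The largest difference of a single gene was 4.02 times its counting error. The offset itself remained after the authors' scaling. Over the 288 listed genes with 500 or more control reads, the median log2 ratio of scaled column 1 over column 2 was 0.18. Apart from this offset, the columns differed by little more than sampling noise, and they were counted as 1 sample. The level in GATA-1 WT lay outside both control columns for all 1685 listed genes, but the listing required a change above 2-fold, so no test is read from this. With 1 sample a group, no difference below has a replicate check. The intervals given cover counting error only.

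Genes were far from equal in how much RNA they added or removed. Summed over the listed genes, the level was 594854 scaled reads in the control beside 991733 in GATA-1 WT. Genes that were higher gained 638634 scaled reads together, and the change of those that were lower summed to -241755. The 10 genes with the largest gain carried 28.3% of all gain, while the 10 with the largest loss carried 50.9% of all loss. It took 44 genes to reach 50% of the gain and 10 genes to reach 50% of the loss. The loss side was therefore carried by a handful of abundant transcripts, and the gain side was spread over more genes.

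**Figure D1:**
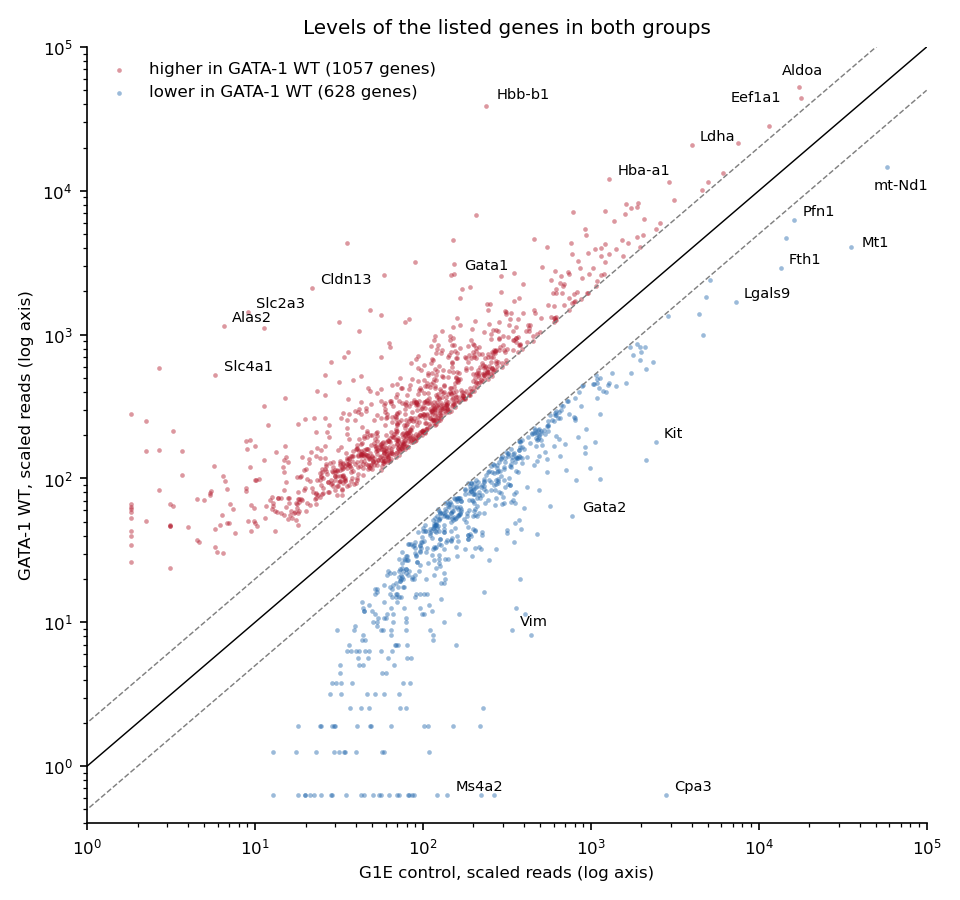
Level of each of the 1685 listed genes in the G1E control (x axis) and in GATA-1 WT (y axis), in scaled reads on log axes, with red points for the 1057 higher and blue points for the 628 lower genes. The solid line marks equal levels and the dashed lines 2-fold, which bounds the points because only genes past 2-fold were listed. Hbb-b1 sits at 238 and 39108 scaled reads, and the row of blue points at the bottom is genes with 1 read in GATA-1 WT, among them Cpa3.

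The balance of directions moved with abundance. Among the 340 genes whose higher group stood under 100 scaled reads, 141 were higher and 199 lower. From 100 to under 1000 scaled reads there were 768 higher and 387 lower genes, and from 1000 to under 10000 there were 137 and 37. The 16 genes at 10000 or more split into 11 higher and 5 lower. The class from 1000 to under 10000 carried 41.9% of the gain, the largest share, whereas the 16 most abundant genes carried 43.4% of the loss. A change above 4-fold was seen for 348 higher and 242 lower genes, above 10-fold for 85 and 90, and above 30-fold for 25 and 39. Few reads stood behind many of the deepest folds: 52 lower genes had 3 or fewer reads in GATA-1 WT, and 15 higher genes had 3 or fewer in the control.

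The balance of directions depended on how the 2 libraries were scaled to each other. On the authors' scale 62.7% of the listed genes were higher. Among the 2040 genes with a level in both groups, whether listed for this pair or not, 1067 were past 2-fold higher and 673 past 2-fold lower. Scaling both groups to equal summed reads shifted every change by -0.65 on the log2 scale, and these counts became 554 and 748. Centring on the median of the same 2040 genes shifted changes by -1.05 and gave 325 and 835. The lower genes thus outnumbered the higher ones under both. Both rest on genes that were listed somewhere, which were chosen for their change. Centring on the 355 of these genes that this table does not list shifted changes by 0.09, but these genes are mostly within 2-fold on the authors' scale by the choice itself, so that nothing is read from it. With all 2040 genes centred, 41 listed genes turned from higher to lower.

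Gata1 itself stood at 160.2 and 146 scaled reads in the control columns and 2652 in GATA-1 WT, a ratio of 17.3 (95% counting interval 15.2 to 19.8). The gene lies at chrX:7959260-7978071 in GRCm38. The control thus held Gata1 reads, from a part of the gene that the tables do not name. Esr1, the estrogen receptor alpha gene, had 2 control reads beside 93 GATA-1 WT reads, a ratio of 32.1 (interval 8.63 to 269). Whether these are reads of the cell's own Esr1 gene was not tested. Gata2, a related factor of blood progenitors, had 818 and 728 scaled reads in the control columns and 54.8 in GATA-1 WT. Both control columns lay far above GATA-1 WT, with a ratio of 14.1 (interval 11.3 to 17.7). Zfpm1, which encodes FOG-1, was not listed for this pair.

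The labelled cell type was set against marker genes. Of 8 erythroid markers 7 were listed and all 7 were higher in GATA-1 WT, with a summed level of 3298 scaled reads in the control beside 62807 in GATA-1 WT. The eighth, Epor, was not listed. The control was not without red cell transcripts: Hba-a1 stood at 1291 scaled reads there, Tfrc at 1145 and Klf1 at 462, whereas Alas2 and Slc4a1 were at 6.54 and 5.80. Of 8 mast cell markers 5 were listed (Cpa3, Kit, Ms4a2, Tpsab1 and Hdc), all lower, with a summed level of 5448 in the control beside 183 in GATA-1 WT. None of the 6 megakaryocyte, 6 neutrophil and macrophage, 4 lymphocyte and 4 stromal or endothelial markers was listed, so that their levels in this pair are not given here. The part of mast cell transcripts in the other differences was not tested.

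**Figure D2:**
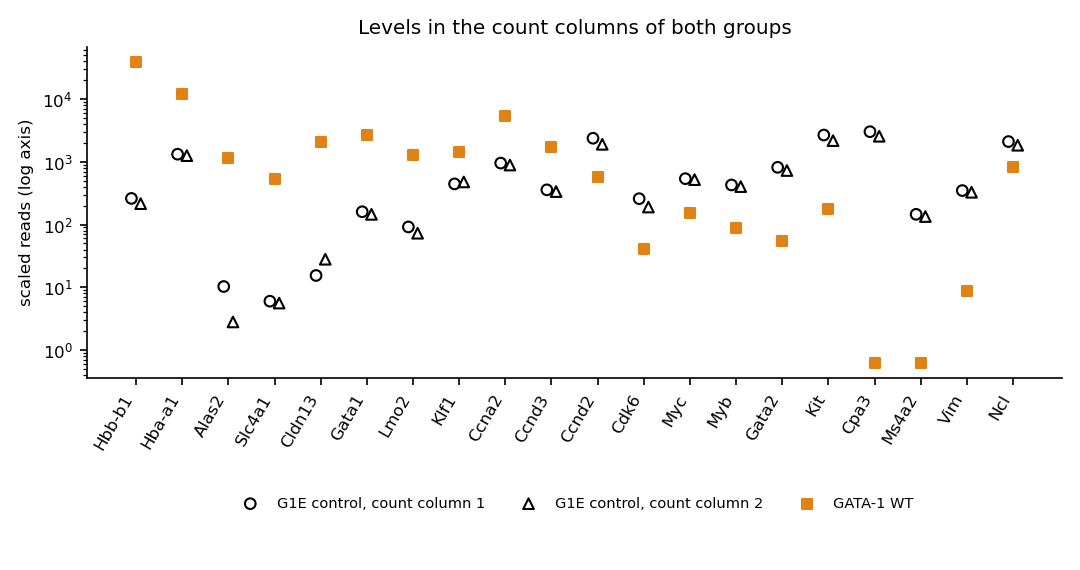
Levels of 20 named genes in scaled reads (log axis) in the 2 count columns of the G1E control (open circles and triangles) and in GATA-1 WT (orange squares). The 2 control columns sit close together for most genes, and GATA-1 WT lies above both on the left of the plot for Hbb-b1 to Ccnd3 and below both for Ccnd2 to Ncl.

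Since the comparison turns on a DNA-binding factor, promoters of 6 named genes are shown, 4 that were higher (Alas2, Hba-a1, Klf1, Ermap) and 2 that were lower (Cpa3, Ms4a2). They were picked from the named genes whose promoter holds a GATA motif, after the motif search. Each is the 250 bases before the start of the gene, 5′ to 3′ on the gene's strand, from RefSeq on GRCm38.p6. Capitals mark a GATA motif on either strand. The letters searched were AGATAA, and besides these TGATAA, then the variant AGATAG, and besides this TGATAG. The windows lie at chrX:150547167-150547416 (plus strand) for Alas2, chr11:32283422-32283671 (plus) for Hba-a1, chr8:84901732-84901981 (plus) for Klf1, chr4:119189996-119190245 (minus) for Ermap, chr3:20242182-20242431 (minus) for Cpa3 and chr19:11623720-11623969 (minus) for Ms4a2.
Alas2: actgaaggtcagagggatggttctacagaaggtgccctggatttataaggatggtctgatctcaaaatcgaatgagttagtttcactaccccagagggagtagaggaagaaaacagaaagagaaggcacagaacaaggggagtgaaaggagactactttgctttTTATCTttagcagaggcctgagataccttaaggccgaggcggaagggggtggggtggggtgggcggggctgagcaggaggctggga
Hba-a1: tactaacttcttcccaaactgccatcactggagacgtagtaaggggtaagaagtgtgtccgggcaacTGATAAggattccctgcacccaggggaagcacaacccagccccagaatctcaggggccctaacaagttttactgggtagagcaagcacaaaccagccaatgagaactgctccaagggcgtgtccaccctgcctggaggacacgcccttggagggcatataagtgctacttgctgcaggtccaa
Klf1: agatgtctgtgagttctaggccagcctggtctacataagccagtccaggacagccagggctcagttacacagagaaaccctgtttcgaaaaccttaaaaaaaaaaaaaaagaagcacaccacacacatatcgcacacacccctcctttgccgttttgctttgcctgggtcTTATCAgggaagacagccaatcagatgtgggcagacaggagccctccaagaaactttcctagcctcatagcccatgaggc
Ermap: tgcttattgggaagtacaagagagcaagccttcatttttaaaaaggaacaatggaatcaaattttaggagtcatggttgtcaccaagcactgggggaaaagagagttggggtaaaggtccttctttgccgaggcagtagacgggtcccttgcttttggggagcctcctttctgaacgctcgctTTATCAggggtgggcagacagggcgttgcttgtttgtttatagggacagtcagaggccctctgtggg
Cpa3: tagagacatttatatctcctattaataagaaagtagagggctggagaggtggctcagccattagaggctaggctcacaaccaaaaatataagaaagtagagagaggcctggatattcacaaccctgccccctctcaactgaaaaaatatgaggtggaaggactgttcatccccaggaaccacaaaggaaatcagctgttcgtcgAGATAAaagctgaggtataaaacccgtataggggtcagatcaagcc
Ms4a2: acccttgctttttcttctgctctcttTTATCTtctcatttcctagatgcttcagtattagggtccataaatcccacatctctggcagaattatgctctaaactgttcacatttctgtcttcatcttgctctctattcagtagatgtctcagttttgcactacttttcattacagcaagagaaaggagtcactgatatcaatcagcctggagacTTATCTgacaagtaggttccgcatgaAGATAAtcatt
The first base of the motif lies 86 bases before the start in Alas2, 183 in Hba-a1, 80 in Klf1, 67 in Ermap and 46 in Cpa3. Ms4a2, the only one of the 6 with 3 matches, has them 224, 37 and 11 bases before its start. That the same letters stand before genes of both directions was set by this choice of promoters.

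Over the 785 higher and 455 lower genes with a matched promoter, such a match was less common than among all RefSeq promoters. That background was not limited to the genes tested. The E-box letters, given below, were also less common than in it, so no depletion of GATA motifs is read from this. In windows from 250 bases before to 50 after the start, 29.8% of the 32851 RefSeq promoters held a GATA motif. The share was 21.7% (95% exact binomial interval 19.2 to 24.4) of 1004 promoters of 785 higher genes, and 19.3% (16.2 to 22.7) of 595 promoters of 455 lower genes. Among genes changed more than 4-fold it was 27.5% (22.8 to 32.6) of 335 promoters for the higher and 18.9% (14.1 to 24.5) of 238 for the lower. With AGATAA alone the share was 11.2% of all promoters, 9.66% of those of higher and 6.72% of those of lower genes, and 12.8% (9.45 to 16.9) for genes more than 4-fold higher. The letters CACACCC, which Klf1 binds, were in 7.95% of all promoters, 8.86% of those of higher genes and 9.24% of those of lower genes. The E-box letters CAGCTG or CATCTG were in 30.6%, 24.5% and 27.6%. Promoters of 1 gene can share sequence, so the intervals are descriptive. A match in these windows describes letters and says nothing of binding.

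The listing was read through 40 gene lists. Beside the 8.17% of all tested genes that were higher, the share of a list that was higher came to 69.6% for heme synthesis, 54.5% for mitosis, 48.5% for red cell membrane and skeleton, 43.2% for glucose uptake and glycolysis and 41.7% for globins. Beside the 4.86% that were lower, the share was 46.2% for mitochondrially encoded, 41.9% for mast cell and 31.4% for stem and progenitor genes. A list share is over all genes written on the list, tested or not, while the 8.17% and 4.86% are over the genes taken as tested. How many genes of a list were tested is not known, so list shares, here and below, may be too low beside these. The lists were written with earlier results of these data known, so these shares describe and test nothing.

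Among red cell genes stood the highest ratio of the most abundant class and a large part of the gain. All 5 listed globin genes of 12 on that list were higher, with a median log2 change of 5.45 beside 1.23 over all listed genes, and they carried 8.85% of the gain. Hbb-b1, an adult beta-globin, had 261 and 215 scaled reads in the control columns and 39108 in GATA-1 WT, a ratio of 164 (interval 148 to 182). No other gene gained more reads. Hba-a1, an adult alpha-globin, had 1325 and 1256 scaled reads in the control columns and 12001 in GATA-1 WT, a ratio of 9.30 (interval 8.88 to 9.74). Its near-identical copy Hba-a2 had a ratio of 44.4 from a control level of 58.9, and Hbb-b2 one of 123 from 35.5. The copies share most of their sequence, so the split of reads within each pair is uncertain. Of the 4 adult globins Hba-a1 had the lowest ratio but, after Hbb-b1, the largest gain in reads, from the highest control level.

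Heme synthesis and transport followed the same direction, with 16 of 23 genes higher, 0 lower and a median of 2.49. Alas2, the erythroid enzyme of the rate-limiting step, had 13 control reads beside 1832 GATA-1 WT reads, a ratio of 176 (interval 103 to 332). By reads gained the order differed: Blvrb, the biliverdin reductase of red cells, stood first with 797 and 761 scaled reads in the control columns and 7133 in GATA-1 WT. Abcb10, a mitochondrial transporter of the erythroid lineage, had 92.5 and 86.7 scaled reads in the control columns and 3195 in GATA-1 WT. Mitochondrial import genes also stood higher, among them the glycine carrier Slc25a38 at 63.2 against 816 scaled reads and mitoferrin Slc25a37 at 83.5 against 443. Later enzymes of the pathway moved less, as with ferrochelatase (Fech) at 827 against 1977 and Urod at 137 against 322. Hebp1, a heme-binding protein, was at 33.9 against 702, and Bach1, a heme-sensing repressor also on the transcription factor list, at 38.1 against 487.

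Of 33 red cell membrane and skeleton genes 16 were higher and 0 lower, with a median of 2.41. Ermap, an erythroid membrane-associated protein, carried the largest gain of that list, with 1801 and 1421 scaled reads in the control columns and 8087 in GATA-1 WT. Slc4a1, the anion exchanger band 3, had 9 control reads beside 836 GATA-1 WT reads, a ratio of 90.8 (interval 47.6 to 199). The claudin Cldn13 stood at 21.7 against 2109 scaled reads. Skeleton genes were higher by unequal amounts: beta-spectrin Spnb1 was at 78.5 against 1217, beta-adducin Add2 at 116 against 925 and alpha-spectrin Spna1 at 126 against 295. Spnb1 overlaps Plekhg3 on the opposite strand, which was lower (log2 change -5.45), and without a stated strand setting their reads cannot be told apart. Some red cell genes had many reads in the control already and were not listed here. Their levels come from the other tables, which hold them because they differed elsewhere. The carbonic anhydrase Car2 was at 15118 scaled reads in the control beside 11070 in GATA-1 WT, Car1 at 1562 and 1097, and the Rh-associated glycoprotein Rhag at 1180.4 and 2197.

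Of 35 erythroid transcription factors, cofactors included, 9 were higher and 2 lower, with a median of 1.62 that includes the introduced Gata1. These are shares of 25.7% and 5.71% beside the 8.17% and 4.86% of all tested genes. Lmo2, the LIM-domain partner of Tal1, had 91.7 and 72.8 scaled reads in the control columns and 1293 in GATA-1 WT, a ratio of 15.7 (interval 13.2 to 18.9). Klf1, which activates adult beta-globin, had 445 and 478 scaled reads in the control columns and 1418 in GATA-1 WT, a ratio of 3.07. Mafk, a small Maf partner of Bach1 and NF-E2, was at 41.4 against 304, but it overlaps Tmem184a on the opposite strand. Tmem184a had a ratio of 220.1 (interval 85.7 to 809.5) from 4 reads in the control. Against the majority ran Myb, a factor of proliferating progenitors, at 416 against 87.5, and Tcf3, an E-protein, at 140.1 against 37.2. Tal1, Gfi1b and Nfe2, known partners or targets of GATA-1, were not listed and stood at 627 and 341, 972 and 1568, and 381 and 528 scaled reads, the control first.

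Of 17 iron genes 2 were higher and 1 was lower, shares of 11.8% and 5.88% that stand near the 8.17% and 4.86% of all tested genes. Tfrc, the transferrin receptor that takes iron up, had 1227 and 1063 scaled reads in the control columns and 4018 in GATA-1 WT, and the iron-regulatory protein Aco1 was at 116 against 338. Fth1, the ferritin heavy chain that stores iron, had 14257 and 12726 scaled reads in the control columns and 2890.3 in GATA-1 WT, a ratio of 4.67 (interval 4.52 to 4.82). Its partner Ftl1, the ferritin light chain, was not listed, at 5361 and 6204 scaled reads. The metallothioneins, which bind zinc and copper, were the lower members of the antioxidant list. That list had 19.4% of its genes higher and 5.56% lower. Mt1 had 37582 and 33631 scaled reads in the control columns and 4099.5 in GATA-1 WT, a ratio of 8.69 (interval 8.47 to 8.91), and was second only to mt-Nd1 in reads lost. Mt2 had fewer reads and stood at 134 against 10.1. The other 7 listed antioxidant genes of 36 were higher, led in reads by the peroxiredoxin Prdx2 at 1916 against 8249, with Prdx6 at 1290.2 against 3661, Prdx3 at 1554 against 3547, catalase (Cat) at 392 against 1424 and Txnip, a thioredoxin inhibitor, at 26 against 380.4. Prdx2 overlaps Rnaseh2a on the opposite strand, which was also higher.

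**Figure D3:**
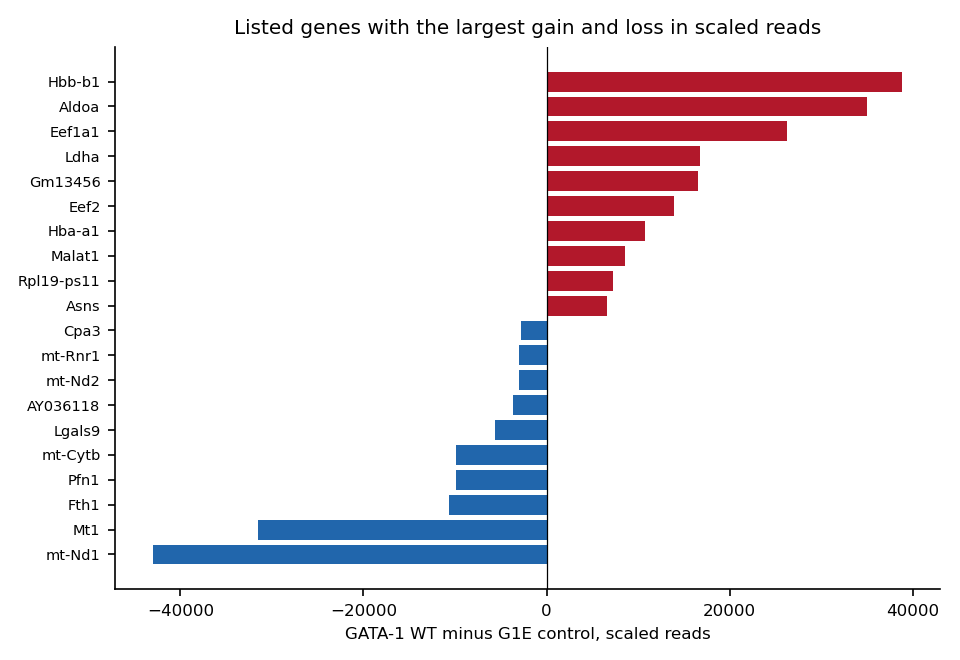
Difference in scaled reads, GATA-1 WT minus G1E control, for the 10 listed genes with the largest gain (red) and the 10 with the largest loss (blue). Hbb-b1 leads the gains, followed by Aldoa and Eef1a1, and mt-Nd1 and Mt1 stand apart from the other losses.

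Mast cell genes had the lowest median of the lists with 5 or more listed genes. Of 31 mast cell genes 13 were lower and 2 higher, with a median of -4.73. Cpa3, the mast cell carboxypeptidase, had 4452 control reads beside 1 GATA-1 WT reads, a ratio of 4438 (interval 796 to 175324). A single read was the lowest value in every count column, and the tables do not show whether 1 was added to each count. Cyp11a1, Ms4a2, Slc45a3, Gzmb, Rgs13, Tpsab1 and Lat were also at 1 read in GATA-1 WT. Their control levels were 223, 140.0, 122, 88.7, 81.8, 55.1 and 19.8 scaled reads. The ratio for Cyp11a1, the side-chain cleavage enzyme, was 353 (interval 63 to 14002), and that for Ms4a2, the beta chain of the IgE receptor, was 222 (interval 39.5 to 8817). Ndst2, a heparin-synthesis enzyme outside that list, had 2261 and 1987 scaled reads in the control columns and 134 in GATA-1 WT. Srgn, the granule proteoglycan serglycin, and the cytokine Il4 ran the other way, at 69.6 against 215 and 30 against 103.

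All 4 listed eicosanoid and lipid mediator genes of 21 were lower, a share of 19.0% beside the 4.86% of all tested genes. Soat1, which esterifies cholesterol, had 416 control reads beside 1 GATA-1 WT reads, a ratio of 423 (interval 75.5 to 16753). Alox5, the 5-lipoxygenase of leukotriene synthesis, had 243 and 3, a ratio of 80.3 (interval 27.1 to 392). Its activating protein Alox5ap was at 80 against 27.1 scaled reads and the prostaglandin receptor Ptger4 at 68.9 against 15.7.

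Of 35 stem and progenitor genes 11 were lower, 3 higher and 21 not listed, with a median of -2.01 over the listed ones. Kit, the receptor for stem cell factor, had 2678 and 2179.8 scaled reads in the control columns and 179 in GATA-1 WT, a ratio of 13.6 (interval 12 to 15.4), the largest loss of reads of that list. Vim, the intermediate filament vimentin, had 349 and 327 scaled reads in the control columns and 8.82 in GATA-1 WT. Ikzf2, an Ikaros family factor, and Lmo4, a LIM-only protein, were at 75.8 against 3.78 and 115 against 8.19. The 3 members that were higher were the cytokine receptor chains Csf2rb at 347 against 2664 and its close copy Csf2rb2 at 240.0 against 538, and the Ets factor Fli1 at 36.4 against 89.4. All 5 listed growth factor receptors of 45 were lower, a share of 11.1% beside the 4.86% of all tested genes. Besides Kit these were the endothelin receptor Ednra (121 reads against 1, ratio 115, interval 20.2 to 4565), the IL-33 receptor Il1rl1 at 163 against 11.3, and the Wnt receptors Fzd7 at 119.6 against 23.9 and Fzd5 at 125 against 35.3.

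Cytokine signalling and its feedback were mixed, with 5 higher and 3 lower of 37. These are shares of 13.5% and 8.11% beside the 8.17% and 4.86% of all tested genes. Besides the 2 receptor chains above, the kinase Pim1 was at 142 against 556, the receptor Il9r at 34.1 against 122 and Stat5b at 143 against 288, a change that turned under centring on all genes with both levels. Stat5a, the close relative of Stat5b, was lower, at 189.6 against 40.9, and so was the phosphatase Ptpn6 (SHP-1), at 148 against 42.8. The megakaryocyte list gave 4 higher and 2 lower of 31, shares of 12.9% and 6.45%, 1 of the higher being Gata1. Tubb1, the platelet beta-tubulin, had 2 reads against 101 (ratio 34.8, interval 9.39 to 291), the ADP receptor P2ry1 was at 27.3 against 94.5, and P2rx1 and Nbeal2 were lower, at 52.2 against 3.15 and 136 against 27.7.

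**Figure D4:**
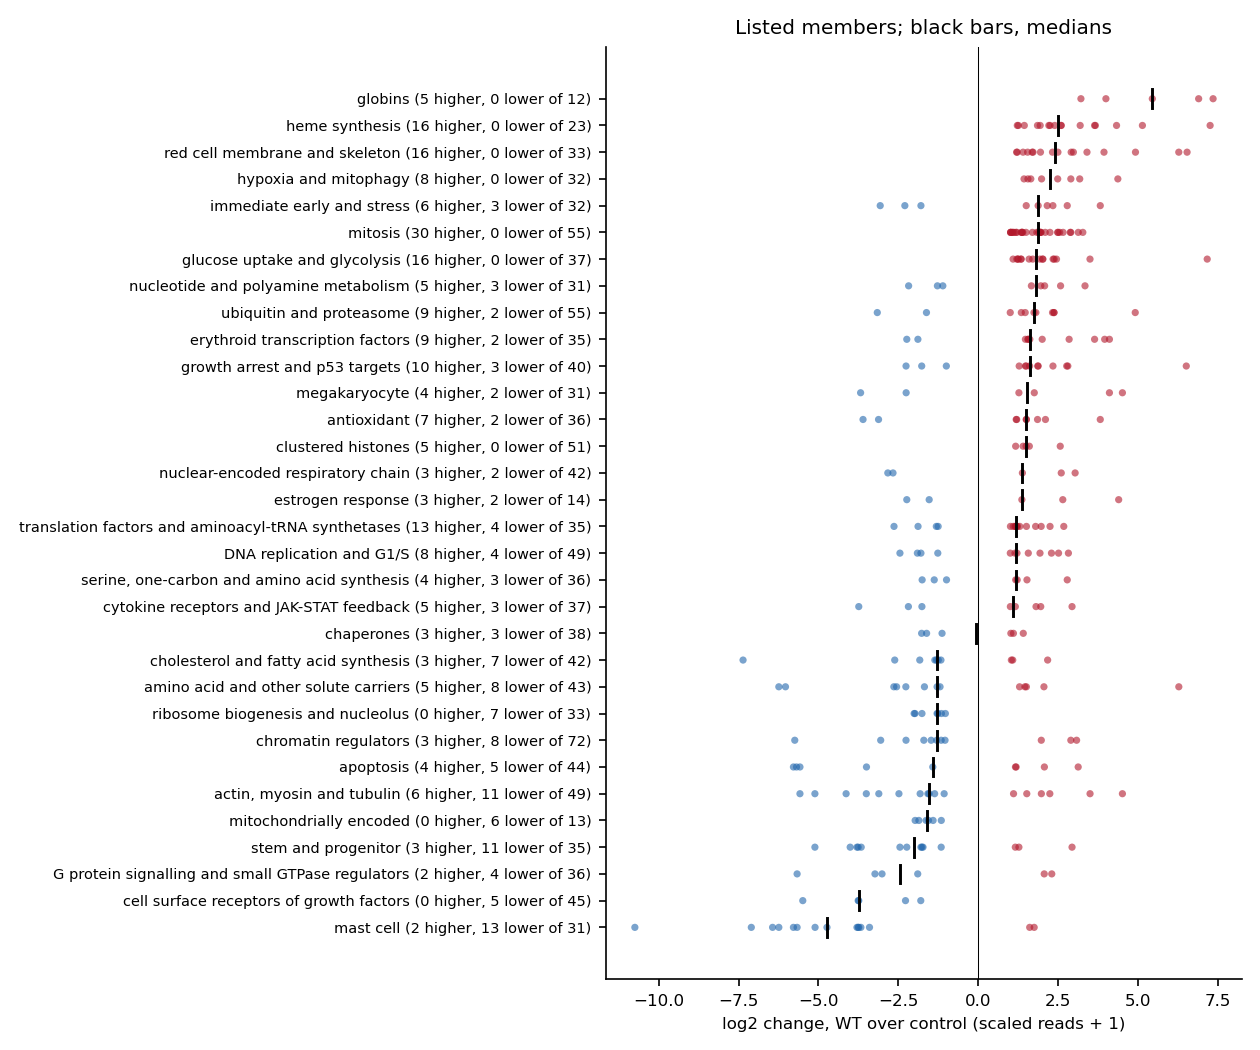
Log2 change (GATA-1 WT over G1E control, scaled reads plus 1) of the listed members of each gene list with 5 or more listed genes, with a black bar at their median. Globins and heme synthesis lie to the right with medians of 5.45 and 2.49 and mast cell genes to the left at -4.73, and the gap around 0 is the 2-fold limit of the listing.

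Of 37 genes of glucose uptake and glycolysis, 16 were higher and 0 lower, with a median of 1.82 and 9.70% of all gain, beside 8.85% for the globins. The order of these shares turned with equal summed reads, at 9.60% and 11.3%. Aldoa, the aldolase of muscle and red cells, had 18419 and 16252 scaled reads in the control columns and 52332 in GATA-1 WT, a ratio of 3.02 (interval 2.98 to 3.06). Its close copies Aldoart1 and Aldoart2 were also higher, at 935 against 4938 and 1893 against 4753, and the split of reads among them is uncertain. Ldha, a lactate dehydrogenase chain, had 4133 and 3842 scaled reads in the control columns and 20748 in GATA-1 WT, a ratio of 5.20 (interval 5.06 to 5.35). The largest fold was that of the glucose transporter Slc2a3, with 12 control reads beside 2287 GATA-1 WT reads, a ratio of 159.6 (interval 91.2 to 309). All 3 phosphofructokinase genes stood higher, Pfkm at 22.5 against 265, Pfkp at 153 against 843 and Pfkl at 79.1 against 326. The enolase Eno1 was at 967 against 3698, and Pklr, the pyruvate kinase of red cells, was not listed, at 204 and 350.2 scaled reads.

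Genes linked to low oxygen and to mitophagy gave 8 higher and 0 lower of 32, with a median of 2.24. The share that was higher, 25%, stands beside the 8.17% of all tested genes. Bnip3, a mitophagy receptor, had 35.1 and 36.4 scaled reads in the control columns and 759.6 in GATA-1 WT, and its relative Bnip3l, known for clearing mitochondria from reticulocytes, was at 359 against 1128. The histone demethylase Kdm3a was at 84.7 against 639 and the collagen prolyl hydroxylase P4ha1 at 9.97 against 98.3. The listed transcripts of the mitochondrial genome went the other way. Of 13 genes on the mitochondrially encoded list 6 were listed, and the others are in none of the 6 tables, so their change is unknown. The table lists 7 of them, 6 protein-coding genes and the small ribosomal RNA mt-Rnr1, and all 7 were lower. They made up 14.6% of the summed level of the listed genes in the control, against 2.45% in GATA-1 WT, and held 25.8% of the loss. Complex I subunit mt-Nd1 had 62026 and 53481 scaled reads in the control columns and 14715 in GATA-1 WT, a ratio of 3.92 (interval 3.87 to 3.98). Cytochrome b (mt-Cytb) was at 14581 against 4715, mt-Nd2 at 4861 against 1827, mt-Nd4 at 2341 against 646 and mt-Rnr1 at 4421 against 1400.1. The genes mt-Nd5 and mt-Nd6 overlap on opposite strands and were at 1952 against 663 and 804 against 361.

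Of 35 translation factors and aminoacyl-tRNA synthetases, 13 were higher, 4 lower and 18 not listed, with 7.21% of the gain. The shares were 37.1% higher and 11.4% lower, beside the 8.17% and 4.86% of all tested genes. The median over the listed ones was 1.19, and 0.14 under centring on all genes with both levels. The elongation factors Eef1a1 and Eef2 stood out by level, Eef1a1 with 19173 and 16629.5 scaled reads in the control columns and 44141 in GATA-1 WT and Eef2 with 7999 and 7046 scaled reads in the control columns and 21429 in GATA-1 WT. Among the synthetases Hars was at 249 against 1186, Tars at 329 against 1294 and Aars at 367 against 1279. Yars (1.01) was the only gene of the list that turned under centring on all genes with both levels. Eif2ak1, the heme-regulated kinase that slows translation, was at 69.8 against 452. Against the majority ran Rps6ka1 at 28.7 against 3.78, the Eef2 kinase Eef2k at 272 against 73.1, Mknk2 at 657 against 265 and Eif1a at 552 against 231. All 7 listed genes of ribosome biogenesis, of 33, were lower, a share of 21.2%, with a median of -1.29. Nucleolin (Ncl) had 2108 and 1841 scaled reads in the control columns and 823 in GATA-1 WT, Wdr43 and Utp20, of the small-subunit processome, were at 706 against 175 and 203 against 59.2, and the RNA polymerase I subunit Polr1b was at 159 against 39.7.

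Genes of serine, one-carbon and amino acid synthesis gave 4 higher and 3 lower of 36. These are shares of 11.1% and 8.33% beside the 8.17% and 4.86% of all tested genes. Asns, the asparagine synthetase, had 5391 and 4527 scaled reads in the control columns and 11564 in GATA-1 WT and the 10th largest gain. Atf4, a known activator of Asns, and the stress-response factor Ddit3 were at 113 against 256 and 41.2 against 290.3, and the mitochondrial folate enzyme Mthfd2 at 243 against 703. The cytosolic folate enzymes Mthfd1 and Shmt1 were lower, at 1114 against 429 and 155 against 45.3. Got1 was the third of the lower ones. Of 43 solute carriers outside heme and glucose transport, 5 were higher and 8 lower, shares of 11.6% and 18.6%. The glutamine transporter Slc38a5 had 3 reads against 400, a ratio of 112 (interval 37.9 to 544). The amino acid transporter Slc7a8 was at 1059 against 179.5 and the anion transporter Slc26a1 at 716 against 114. Slc30a2, a zinc transporter, had 349 reads against 4, a ratio of 90.9 (interval 35.2 to 336), whereas Slc30a10, a metal exporter of the same family, was higher at 117 against 489.

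Mitotic genes were higher without exception among those listed. Of 55 genes 30 were higher and 0 lower, with a median of 1.86 and 4.06% of the gain. Cyclin A (Ccna2) had 956 and 889.8 scaled reads in the control columns and 5412 in GATA-1 WT, a ratio of 5.86 (interval 5.54 to 6.21). Topoisomerase Top2a was at 761 against 4305, the spindle factor Tpx2 at 551 against 4068, the proliferation marker Mki67 at 843 against 3245 and Prc1, which bundles midzone microtubules, at 290.2 against 2553. The phosphatase Cdc25b had the largest fold, at 26.1 against 261. Bub1, Cdca8 and Incenp, all near 2-fold, turned under centring on all genes with both levels, and the other 27 did not.

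Of 49 genes of DNA replication and of the G1 to S step, 8 were higher and 4 lower. These are shares of 16.3% and 8.16% beside the 8.17% and 4.86% of all tested genes. The median over the listed ones was 1.18, and 0.14 under centring on all genes with both levels, where Orc6 turned. Cyclin D2 (Ccnd2) had 2380.5 and 1906 scaled reads in the control columns and 573 in GATA-1 WT, and cyclin D3 (Ccnd3) had 358 and 336 scaled reads in the control columns and 1705 in GATA-1 WT. Per kilobase of exon, the level of Ccnd2 was 228 in the control, against 60.8 in GATA-1 WT, and that of Ccnd3 was 39.5 and 194, so the order of the 2 D-type cyclins differed between the groups. Their partner kinase Cdk6 was at 224 against 40.3, and cyclin E (Ccne1) at 35.4 against 257. Cdc6, which loads the replicative helicase, was at 513 against 2936, whereas its partner Cdt1 was lower at 168 against 69.3. Myc was at 530.1 against 152.

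Of 40 genes of growth arrest and p53 targets 10 were higher, 3 lower and 27 not listed, with a median of 1.61 over the listed ones. The shares were 25% higher and 7.5% lower, beside the 8.17% and 4.86% of all tested genes. Btg2, an antiproliferative gene, had 15 control reads beside 1779 GATA-1 WT reads, a ratio of 99.3 (interval 60.1 to 178). The Cdk inhibitor p27 (Cdkn1b) was at 65 against 449.7 and cyclin G2 (Ccng2) at 14.9 against 110.2. Among the lower were Klf10 at 184 against 37.8 and Mnt at 47.4 against 13.2. The mRNA-decay factors Zfp36l1 and Zfp36l2 were also lower, at 551 against 111 and 382 against 44.7. All 5 listed clustered histone genes of 51 were higher, a share of 9.80% that stands near the 8.17% of all tested genes. Linker histones made up 4 of the 5, with Hist1h1c at 1211 against 7189 and Hist1h1e at 2088 against 6335, while the core histone Hist1h3c was not listed, at 2651 and 3727 scaled reads.

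Chromatin regulators gave 3 higher and 8 lower of 72, shares of 4.17% and 11.1% beside the 8.17% and 4.86% of all tested genes. The 3 higher were histone demethylases, Kdm3a, Jhdm1d at 14.9 against 134 and Kdm5b at 88.1 against 349.6. Lower were the CBP partners Cited2 at 273 against 32.1 and Cited1 (124 reads against 1, ratio 137, interval 24.1 to 5444), the architectural protein Hmga1 at 185 against 37.8 and Uhrf1, which maintains DNA methylation, at 508 against 206.

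Cytoskeleton genes went in both directions, with 6 higher and 11 lower of 49 and 5.61% of the loss. These are shares of 12.2% and 22.4% beside the 8.17% and 4.86% of all tested genes. Profilin (Pfn1) had 17033 and 15359 scaled reads in the control columns and 6300.1 in GATA-1 WT, the fourth largest loss. Lgals1, a galectin, was at 438 against 8.19, filamin A (Flna) at 568 against 64.9, Tagln2 at 1615 against 458 and Coro1a, an actin regulator of white blood cells, at 110.2 against 8.82. Higher were lamin A (Lmna) at 189.9 against 2160.3, alpha-actinin Actn4 at 308 against 1461, ezrin (Ezr) at 130.4 against 516, vinculin (Vcl) at 77.9 against 225, Tuba4a and Tubb1. Lamin B1 (Lmnb1) went against lamin A, at 161 against 54.8. Moesin (Msn), a relative of ezrin, was lower too, at 1723 against 823.

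Apoptosis genes went in both directions, with 4 higher and 5 lower of 44. These are shares of 9.09% and 11.4% beside the 8.17% and 4.86% of all tested genes. Bid was lower at 329 against 122, but it overlaps Bcl2l13 on the opposite strand, which was higher. The granule protease Gzmb and the death ligand Tnfsf10 were at 1 read in GATA-1 WT, from 88.7 and 82.9 scaled reads. Bcl2l1 (Bcl-xL), which protects maturing erythroblasts, was at 97.1 against 411, and Bax, which acts against it, at 208 against 469. Dapk2, a death-associated kinase, was at 10.2 against 97. The median of this list was -1.42 over its 9 listed genes and 1.18 over those with 10 or more scaled reads in both groups, so it rests on few reads.

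Ubiquitin genes were 9 higher and 2 lower of 55. These are shares of 16.4% and 3.64% beside the 8.17% and 4.86% of all tested genes. Ube2l6, a conjugating enzyme for ubiquitin and ISG15, had 48.8 and 47.6 scaled reads in the control columns and 1484 in GATA-1 WT, a ratio of 30.8 (interval 24.4 to 39.3), the scaffold Cul4a was at 143 against 719.9, and March8, a ligase known to act on the transferrin receptor, at 64.2 against 336. The F-box protein Skp2, which targets p27, was lower at 75.6 against 23.9, as was the deconjugating Usp18 at 24.8 against 1.89. Nucleotide metabolism gave 5 higher and 3 lower of 31, shares of 16.1% and 9.68%. Nt5c3, the pyrimidine nucleotidase of maturing red cells, had 499 and 417 scaled reads in the control columns and 4660.1 in GATA-1 WT. Adenosine kinase (Adk) was at 661 against 2577, the AMP deaminase Ampd3 at 129.7 against 779.7, and the polyamine enzyme Odc1 at 201 against 853. The synthesis enzymes Gart and Cad were lower, at 489 against 202 and 613 against 284. Ampd3 overlaps Rnf141 on the opposite strand, also higher.

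Of 42 lipid synthesis genes 3 were higher and 7 lower, shares of 7.14% and 16.7% beside the 8.17% and 4.86% of all tested genes. Besides Soat1, the fatty acid elongase Elovl6 was at 205.3 against 32.8, and the cholesterol enzyme Dhcr7 was at 604 against 169. Fatty acid synthase (Fasn) was at 487 against 189.6. The desaturase Scd2 was higher at 943 against 1939, a change that turned under centring on all genes with both levels, and so were Nsdhl at 259.9 against 551 and Insig2, a brake on sterol synthesis, at 26.3 against 122.

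The listed genes included 114 pseudogenes, which held 11.4% of the gain. For 113 of them the closest protein-coding transcript matched over at least 50% of their length, with a median identity of 97.8%. The closest gene was itself listed for 72, and all 72 went in the same direction as that gene. Gm13456, at 11517 against 28029 scaled reads, is 98.6% identical to Eef1a1, and it had the fifth largest gain. Reads of such copies cannot be assigned with certainty, and the count of 1685 may include some transcripts under more than 1 name.

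At the limit of the listing, genes just inside were Ralb at 119.6 against 239, Psmd12 at 741 against 1483 and 4933426M11Rik at 190.1 against 381 among the higher, and Got1 at 135 against 67.4 and Gm5637 at 894 against 445 among the lower. Just outside, with levels taken from other tables, were Add3 at 177 and 351 scaled reads (control first), Fam134a at 218 and 422, and Sec14l1 at 132 and 256. On the lower side these were Piwil4 at 85.9 and 43.5, 8430427H17Rik at 67.9 and 34.6 and Lgals3bp at 88.9 and 45.3. A further 55 unlisted genes with both levels were past 2-fold and had therefore missed the authors' p limit or been left out for another reason.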

How the data were processed

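RNA-seq was made from 4 samples of the G1E line, 1 per group, and this text uses the G1E control and GATA-1 WT. The mm10 build and the tools deepTools, Cuffdiff, Cufflinks and TopHat are named in the submitters' processing notes, without their roles. The tool behind this table and all versions are not given in the sources. Signal is the authors' deposited mean of reads divided by a size factor. Steps in these values gave size factors of 1.17 and 0.357 for the control columns and 1.59 for GATA-1 WT. Deposited p-values, ratios and log2 ratios of the 2 levels, by the authors, served only to define the listing. The p-values also gave the number of genes taken as tested.

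The log2 change used a pseudocount of 1 scaled read. Ratios are of the authors' levels, with 95% Clopper-Pearson counting intervals from the recovered reads. Members and the 40 gene lists were chosen with earlier results of these data known. Named genes were Gata1, Esr1, Zfpm1, Gata2 and Kit, the 15 largest gains and losses, leaders of each level class, the members of each list with the largest difference or log2 change or against its majority, and genes nearest to 2-fold. Some further list members are named, chosen after their values were seen, and not every gene the rule selects is reported here. Of the listed genes 1659 matched GENCODE M21, 1548 by symbol and 111 by an older symbol. Pseudogenes were compared with blastn 2.17.0. Alternatives used edgeR 4.0.16, tested on simulated data. The plan's other settings are given in the closing section.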

Additional observations from a re-analysis of the deposited data

How the results depend on the processing

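No paired analysis was possible because each group is 1 sample. The counts of higher and lower genes, 1057 and 628, kept within 1.5 times under pseudocounts of 0.1 and 10, filters of 10 scaled reads in both groups or 100 in the higher, and either control column alone. All of these were recounts of listed genes, already past 2-fold, which could only keep or lower the counts. The lowest were 916 and 429, with the filter of 100. No robustness of the listing itself is read from them. Over listed genes only, where a downward shift cannot lower the count of lower genes, higher genes numbered 551 with equal summed reads and 324 with centring on genes with both levels. Above 4-fold there were 348 higher and 242 lower. With edgeR on the recovered reads and an assumed BCV (biological coefficient of variation) of 0.2, 609 and 381 passed on the authors' size factors, and 254 and 650 with TMM scaling, which turns the balance. With a BCV of 0.4 these were 60 and 46, and with TMM 29 and 87. These compare libraries, not conditions. With the spread estimated from the 2 control columns, which is close to counting error and so technical, TMM scaling gave 654 and 698, and the authors' size factors 1045 and 650. The share of gain in the top 10 genes was 29.1% with equal sums, 28.3% without control column 1, 28.4% without Gata1 and 32.9% per kilobase of exon. For the loss it was 49.8% with equal sums, 50.6% and 51.1% without control columns 1 and 2, and 70.0% per kilobase of exon. The GATA share of promoters was 9.66% (higher) and 6.72% (lower) for AGATAA alone, and 27.5% for higher genes past 4-fold. Of 288 list medians over 36 lists, 201 stayed within a tolerance, 84 moved past it and 3 changed sign. The tolerance was the median counting error of single member genes, not the error of the list median. It is wide for lists of genes with few reads. The sign changes were chaperones (0.041, centred on unlisted genes), apoptosis (1.18) and estrogen response (-0.083), the last 2 with 10 or more scaled reads in both groups. The causes were not tested. Chosen after seeing the data were centring on unlisted genes, the estimated spread, values per kilobase, and the recounts over all 2040 genes and of glycolysis and globin shares. Depth limits genes with 3 or fewer reads, and replicate spread is unknown.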

Other observations

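Lists with few listed genes are given here for completeness. The immediate early and stress list of 32 gave 6 higher and 3 lower, with a median log2 change of 1.88. These are shares of 18.75% and 9.38% beside the 8.17% and 4.86% of all tested genes. The transcription factor Jun was at 5.80 against 33.4 scaled reads and the phosphatase Dusp1 at 41.3 against 188, which overlaps Ergic1 on the opposite strand, a gene that was lower. Chaperones were 3 higher and 3 lower of 38, a share of 7.89% each way beside the 8.17% and 4.86% of all tested genes. The calcium-binding Calr was at 1884 against 859.7 and the chaperonin subunit Cct2 at 1079 against 2194. Nuclear genes of the respiratory chain were 3 higher and 2 lower of 42, shares of 7.14% and 4.76% that stand near those of all tested genes. The ATPase inhibitor Atpif1, known to be needed for heme synthesis in maturing red cells, was at 1667 against 4351, and the dehydrogenase Idh2 was lower at 95.5 against 12.6. The estrogen response list gave 3 higher and 2 lower of 14, shares of 21.4% and 14.3%. The higher were Esr1, Ncoa3 at 26 against 168 and Xbp1 at 40.9 against 107. The lower were Nrip1 at 113 against 38.4 and Myb.

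Of 30 genes on the MAPK list 3 were lower, 10% beside the 4.86% of all tested genes: Dusp7 at 85.2 against 5.67, Spred2 at 113 against 29.6 and Spred1 at 117 against 45.3, and Dusp1 was higher. Of 36 genes of G protein signalling, 4 were lower, a share of 11.1%: Rgs13, Rgs19 at 61.6 against 5.67, Rgs18 at 32.4 against 3.15 and Gng2 at 65.8 against 17, and 2 were higher, Gnb4 at 7.62 against 41.6 and Dock2 at 6.45 against 30.2. The integrin chain Itgb2 was higher at 47.3 against 428, while the tetraspanin Cd53 had 41 control reads beside 1 GATA-1 WT reads, a ratio of 44.8 (95% counting interval 7.61 to 1814). Laptm5, a lysosomal protein of blood cells, was lower at 1263 against 448. The stromal and endothelial list gave Col5a1 at 6.45 against 104 and Egfl7 at 8.79 against 183, both higher, although none of its 4 defining markers was listed.

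Among the genes with the largest gains, Malat1, a nuclear long non-coding RNA, was at 2939 against 11528 scaled reads and D17H6S56E-5 at 207 against 6798. Among those with the largest losses, galectin-9 (Lgals9) was at 7277 against 1695 and AY036118 at 4652 against 994. Of genes under 100 scaled reads in the higher group, the largest increases were Calcrl (2 reads against 106, ratio 36.5, interval 9.87 to 306), Tubb1, Tmem120b (4 against 132, ratio 31, interval 11.8 to 115), Gja6 (2 against 97, ratio 33.4, interval 9.01 to 280.0) and Esr1. In the next class, up to 1000, the butyrophilin Btn1a1 had 2 reads against 446, a ratio of 154 (interval 42.3 to 1273), and Kalrn 3 against 342, a ratio of 66.8 (interval 22.7 to 325). Tmem44 was lower, with 347 reads against 3, a ratio of 116 (interval 39.2 to 564).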
